A study of Mus musculus with 11 samples.

Results

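The Hox genes are described here across 11 arrays of embryonic day 17 mouse kidney. They were taken as every gene whose platform symbol is Hox followed by a cluster letter from a to d and a number from 1 to 13, with antisense and opposite-strand transcripts left out. This gave 33 of the 18193 genes on the array and 33 of the 39 Hox genes in the RefSeq table. The 33 genes were read by 48 probe sets, and the probe set whose mean log2 intensity was highest stands for its gene.

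Hox genes encode homeodomain transcription factors that give cells their position along the head-to-tail axis. They lie in 4 clusters, A to D, in which the order of the genes along the chromosome follows the order of their domains along the body, and genes of the same number in different clusters form a paralog group. In the kidney, the group 11 genes act with Eya1 and Pax2 in the metanephric mesenchyme to turn on Six2 and Gdnf, the group 10 genes act in the stroma and in the progenitors of the nephron, and the group 13 genes pattern the hindgut, cloaca and external genitalia, tissues posterior to the kidney.

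By their source labels, 4 kidney samples were wild-type and 7 were Robo2 homozygous. Robo2 is a receptor for Slit ligands, and the sources used here give neither the kind of allele nor the strain. The titles of 3 homozygous samples hold the unexplained letters NB, and these NB-titled arrays were kept apart. The remaining 8 arrays belonged to the title series R2E17 (wild-type replicate 1 and homozygous replicate 1) or E17R2 (replicates 2 to 4 of each genotype). The labels do not say that replicates came from separate animals, so p-values cover the spread between these arrays only, and that spread may be technical.

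The R2E17 and NB-titled arrays had median intensities of 47.1 to 53.4 and the E17R2 arrays of 23.4 to 24.6, so the arrays formed a set of 5 and a set of 6 with different distributions, and they were treated as normalized apart. Log2 intensities are therefore compared within a set, and differences between the sets only after each array was centred on its median gene. Free-text labels also spoke of human brain tissue, against the organism and tissue labels. Of 10 measured brain markers, 3 lay above the floor defined below on at least 6 arrays, against 7 of 7 nephron progenitor markers, 9 of 9 ureteric bud markers and 7 of 7 nephron epithelium markers. Smooth muscle and urothelium (8 of 8), skeletal muscle (7 of 7) and liver markers (5 of 5) were also all above it. So were 7 of 9 adrenal and 4 of 7 gonad markers. Passing the floor therefore does not tell kidney from these other tissues. Robo2 itself had E17R2 log2 intensities of 3.32 ± 0.31 (wild-type) and 2.24 ± 0.19 (homozygous, SD, n = 3 each), below the floor on all 11 arrays, and in the set of 5 it read 3.96 in wild-type, 3.37 in homozygous and 3.28, 3.86 and 3.99 on the NB-titled arrays, the last above the wild-type value. Its genotype difference over both title series was -0.96 ± 0.19 (SE), with an adjusted p of 0.879 in limma. The part of Robo2 that the probe set reads is not given.

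The 250 bases before the RefSeq transcript start (GRCm38.p6) are shown for 2 genes of group 11, the group that the kidney mesenchyme needs, and for 2 genes of group 13, whose brightest probe sets stayed near or under the floor described below. Capitals mark matches on either strand to the TATA box in the letters spelled TATAAA, the CCAAT box, the GC box, which reads GGGCGG, and a composite site of Hox and Pbx proteins, which reads TGATNNAT. Some matches overlap one another. The windows are Hoxa11 at chr6:52245811-52246060 (minus strand), Hoxd11 with 2 starts at chr2:74679308-74679557 and chr2:74682073-74682322 (plus strand), Hoxa13 at chr6:52260881-52261130 (minus strand) and Hoxd13 at chr2:74667975-74668224 (plus strand).
Hoxa11: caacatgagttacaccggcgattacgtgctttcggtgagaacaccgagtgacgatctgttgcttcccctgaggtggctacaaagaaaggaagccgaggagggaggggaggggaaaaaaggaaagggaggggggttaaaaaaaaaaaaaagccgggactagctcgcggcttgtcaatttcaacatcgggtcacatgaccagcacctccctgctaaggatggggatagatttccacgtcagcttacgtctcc
Hoxd11, first start: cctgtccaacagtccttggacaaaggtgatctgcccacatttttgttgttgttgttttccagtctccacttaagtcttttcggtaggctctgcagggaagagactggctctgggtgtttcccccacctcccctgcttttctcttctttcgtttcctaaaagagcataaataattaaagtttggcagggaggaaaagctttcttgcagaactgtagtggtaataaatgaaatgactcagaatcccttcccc
Hoxd11, second start: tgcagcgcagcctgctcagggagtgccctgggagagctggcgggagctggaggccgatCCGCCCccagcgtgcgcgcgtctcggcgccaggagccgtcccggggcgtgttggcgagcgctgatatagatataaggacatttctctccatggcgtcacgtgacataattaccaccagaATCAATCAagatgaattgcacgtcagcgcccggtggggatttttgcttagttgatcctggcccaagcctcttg
Hoxa13: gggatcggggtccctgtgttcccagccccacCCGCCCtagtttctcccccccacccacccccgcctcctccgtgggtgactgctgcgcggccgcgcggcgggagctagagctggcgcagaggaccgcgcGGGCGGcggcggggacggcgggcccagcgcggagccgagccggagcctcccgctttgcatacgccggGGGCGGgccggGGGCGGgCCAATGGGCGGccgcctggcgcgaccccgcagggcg
Hoxd13: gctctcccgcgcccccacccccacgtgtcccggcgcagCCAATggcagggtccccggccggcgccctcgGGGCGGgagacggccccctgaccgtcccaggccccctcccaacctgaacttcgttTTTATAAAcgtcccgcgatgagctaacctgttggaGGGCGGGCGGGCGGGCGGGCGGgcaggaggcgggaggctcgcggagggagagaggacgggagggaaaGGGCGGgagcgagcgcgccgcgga

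The group 13 windows were rich in CpG dinucleotides, with 35 in Hoxa13 and 31 in Hoxd13, against a median of 6 over 32851 RefSeq windows of the same length and 13 over the 21 Hox windows. The Hoxa11 window held 13 and no match to any of the 4 motifs. The Hoxd11 windows differed from each other, with 2 CpG in the first and 20 in the second, which also held 1 GC box and 1 Hox-Pbx composite. A CCAAT match was present in 11 of the 21 Hox windows (52.4%) and in 33.8% of all windows. For the GC box these values were 8 of 21 (38.1%) and 32.7%, for the Hox-Pbx composite 3 of 21 (14.3%) and 7.68%, and for the TATA box 2 of 21 (9.52%) and 12.4%. Only 19 of the 33 measured Hox genes had a window in the table, and these matches describe letters, not bound sites.

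By the brightest probe set of each gene, kidneys carried Hox signal from all 4 clusters, and no gene of groups 12 and 13 was counted as above the floor. A dimmer second probe set of Hoxd13, described further on, was above it on 2 arrays. A gene was counted as above the floor on an array where its log2 intensity exceeded the 95th percentile of 71 olfactory and vomeronasal receptor genes, which kidney is not known to use. By this count 24 of 33 Hox genes were above the floor on at least 6 of the 11 arrays, against 70.9% of all genes, so the share of Hox genes as a whole was close to that of all genes. By position the counts were 7 of 10 for groups 1 to 4, 8 of 9 for groups 5 to 8, 9 of 9 for groups 9 to 11 and 0 of 5 for groups 12 and 13. Of the 24, 22 were above the floor on all 11 arrays, Hoxc5 on 10 and Hoxa2 on 9.

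**Figure D1:**
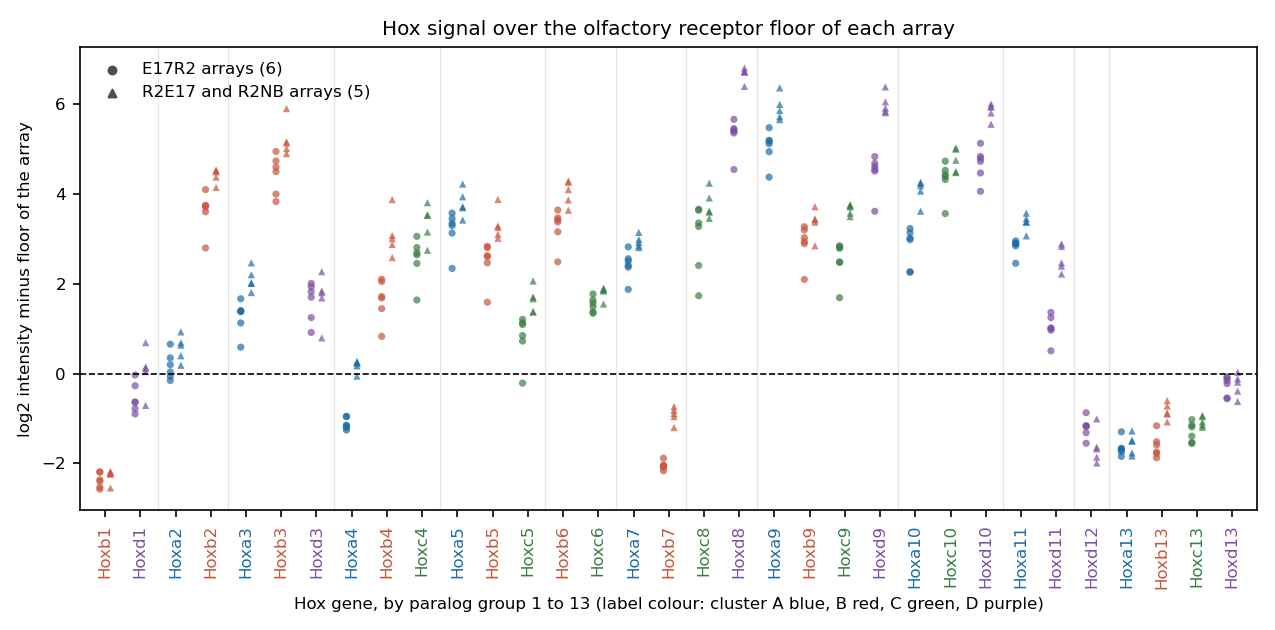
Log2 intensity of each of the 33 Hox genes minus the floor of the same array (vertical axis), ordered by paralog group from 1 to 13, with 1 point for each of 11 arrays and marker shapes for the groups of arrays. All 9 genes of groups 9 to 11 lie above the dashed line on every array, whereas Hoxa13, Hoxb13, Hoxc13 and Hoxd12 lie below it on every array.

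Every cluster contributed. Cluster A had 7 of 9 measured genes above the floor, cluster B 6 of 9, cluster C 6 of 7 and cluster D 5 of 8. The genes that did not pass were Hoxb1 and Hoxd1 of group 1, Hoxa4, Hoxb7, and all 5 measured genes of groups 12 and 13. Hoxb7, whose promoter is widely used to drive transgenes in the ureteric bud, was 2.17 to 0.73 below the floor on the log2 scale (margins of -2.17 to -0.73), which describes this probe set and does not show that the transcript is lacking. Hoxa4 was above the floor on 4 arrays, all in the set of 5, and Hoxd1 on 4, also in the set of 5.

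Among the group 11 genes, Hoxa11 had log2 intensities of 7.32, 7.04 and 7.38 on the wild-type and 7.24, 7.37 and 7.09 on the homozygous E17R2 arrays, and its groups overlapped. Its R2E17 values were 8.12 in wild-type and 8.30 in homozygous, and its NB-titled values were 8.15, 8.13 and 8.12. On the E17R2 arrays the Hoxa11 means were 7.25 ± 0.18 and 7.23 ± 0.14 (SD, n = 3 each). Hoxd11, which acts redundantly with Hoxa11 in kidney formation, read 5.43, 5.50 and 5.55 in wild-type and 5.58, 5.38 and 5.14 in homozygous E17R2 arrays. In the R2E17 pair it read 7.13 in wild-type and 7.61 in homozygous, a difference of 0.48 with no replicate, and the NB-titled arrays read 7.53, 7.23 and 7.27.

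Of the group 10 genes, Hoxa10 read 7.45, 7.37 and 6.80 in wild-type and 7.47, 7.40 and 6.89 in homozygous E17R2 arrays, so 1 array of each genotype was low. Hoxd10 read 9.23, 9.27 and 9.002 in wild-type and 9.17, 9.14 and 8.70 in homozygous. Hoxc10 read 8.96, 8.87 and 8.97 against 8.73, 8.74 and 8.20, and every homozygous value was lower than every wild-type value. In the R2E17 pair Hoxc10 ran the other way, with 9.49 in wild-type and 9.73 in homozygous. All 4 group 9 genes were above the floor on 11 arrays. Hoxd9 had wild-type E17R2 values of 8.98, 8.97 and 9.04, and homozygous values of 9.02, 9.03 and 8.25, where the last array stood apart from the other 5.

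The middle groups 5 to 8 include Hoxc8, Hoxd8, Hoxb5 and Hoxc6. Hoxc8 was the most variable of them on the E17R2 arrays, with 7.71, 7.80 and 6.94 in wild-type and 7.97, 7.77 and 6.37 in homozygous kidneys. Hoxd8 read 9.79, 9.80 and 9.96 against 9.79, 9.81 and 9.18, and its NB-titled and R2E17 values lay between 11.45 and 11.51. The brightest Hoxc6 probe set gave 6.60 on all 5 arrays of its set and 5.90 to 6.07 on the E17R2 arrays. The other 2 Hoxc6 probe sets did vary and were 0.34 and 0.51 higher in homozygous than in wild-type of the R2E17 pair, so the choice of probe set decides what Hoxc6 shows.

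Among the groups 1 to 4, which mark the hindbrain and upper trunk, Hoxb3 read 9.17, 9.09 and 8.53 in wild-type and 8.94, 8.91 and 8.47 in homozygous E17R2 arrays. Hoxb4 read 6.48, 6.24 and 5.98 against 6.02, 6.13 and 5.46. Both genes overlapped between the genotypes. Hoxa2, which patterns the hindbrain and pharyngeal arches, read 4.78, 4.79 and 4.73 in wild-type and 4.37, 4.35 and 4.48 in homozygous, with no overlap, although the gene lay only -0.15 to 0.93 from the floor over the 11 arrays.

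The first comparison asked whether the genotypes differed in Hox transcripts over both title series. None did by the test. In limma with Benjamini-Hochberg adjustment 0 of 33 Hox genes passed an adjusted p of 0.05, as did 0 of all 18193 genes (0% called), and 4 Hox genes had an unadjusted p under 0.05, as did 4.81% of all genes. The smallest p belonged to Hoxa2, at a log2 difference of -0.35 ± 0.12 (SE), an unadjusted p of 0.0157 and a limma adjusted p of 0.943. Hoxb4 (-0.49 ± 0.20), Hoxc13 (0.22 ± 0.09), Hoxb5 (-0.41 ± 0.18) and Hoxa9 (-0.30 ± 0.14, SE) followed, each with the same limma adjusted p of 0.943. The median log2 difference of the 33 Hox genes was -0.14, with 23 below 0, while that of all genes was 0.01, with 46.7% below 0. Without homozygous replicate 4 the difference of Hoxb5 was -0.24 and that of Hoxa9 -0.19.

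On the E17R2 arrays alone, the only series with replicates of both genotypes, 0 of 33 Hox genes passed in limma (0% of all genes called), 2 had an unadjusted p under 0.05, and so did 5.6% of all genes. Hoxa2 had the smallest p, with a wild-type mean of 4.77 ± 0.03 and a homozygous mean of 4.40 ± 0.07 (SD, n = 3 each), a log2 difference of -0.37 ± 0.08 (SE) and a limma adjusted p of 0.840. Hoxc10 was next at -0.38 ± 0.16 (SE) and the same limma adjusted p. Of all 33 genes only these 2 had homozygous values wholly below the wild-type values, against 7.24% of all genes, and 0 lay wholly above, against 5.05%. Hoxa2 also had the lower homozygous value in the R2E17 pair (-0.31), whereas Hoxc10 was higher there (0.23).

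The homozygous mean was lower than the wild-type mean for 25 of the 33 Hox genes on the E17R2 arrays, against 52.9% of all genes, with a median log2 difference of -0.13 against -0.01. This count leaned on 1 array. Without homozygous replicate 4 it was 20 of 33, against 49.6% of all genes, and the Hox median was -0.01. By band, the median difference without that array was -0.06 for groups 1 to 4, -0.01 for groups 5 to 8, -0.01 for groups 9 to 11 and 0.04 for groups 12 and 13, where it had been -0.16, -0.13, -0.22 and 0.19 with it. Without it Hoxc10 was at -0.20, Hoxb9 at -0.13 and Hoxb4 at -0.16, from -0.38, -0.34 and -0.36 with all 6 arrays, and Hoxb4 was at -0.24 without wild-type replicate 2. Hoxc13 was at 0.14 without homozygous replicate 3, from 0.22, while Hoxa2 kept its size (-0.41 without homozygous replicate 4).

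**Figure D2:**
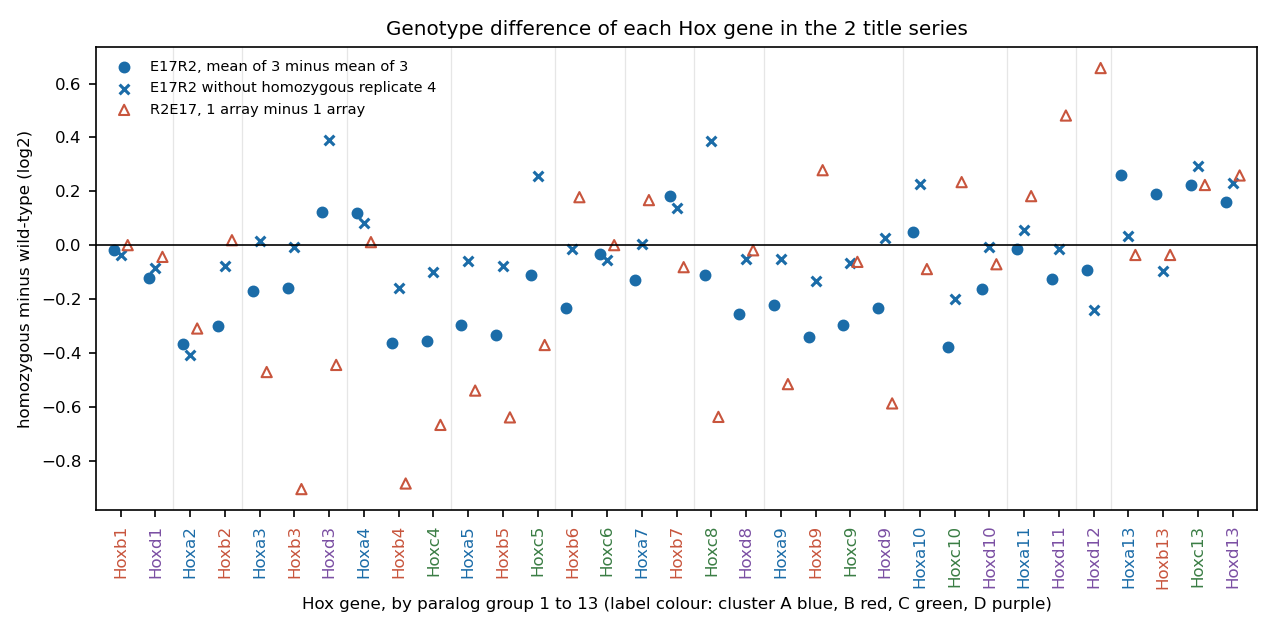
Homozygous minus wild-type log2 intensity (vertical axis) of each of the 33 Hox genes by paralog group, as the difference of 3-array means on the E17R2 arrays, the same without homozygous replicate 4, and the difference of the 2 single R2E17 arrays. The E17R2 differences lie below 0 for 25 genes with all arrays and for 20 without homozygous replicate 4, and none passed the limma test.

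The R2E17 pair, 1 array of each genotype with no replicate check, gave lower homozygous values for 20 of 33 Hox genes, against 39.8% of all genes. The lowest values lay in groups 3 to 5 and 8, with -0.91 for Hoxb3, -0.88 for Hoxb4, -0.67 for Hoxc4, -0.64 for Hoxb5 and -0.64 for Hoxc8. Hoxd9 (-0.59), Hoxa5 (-0.54) and Hoxa9 (-0.52) followed closely, although a second Hoxa9 probe set was at 0.42. Hoxd12 (0.66, under the floor), Hoxd11 (0.48) and Hoxb9 (0.28) were higher. By band the medians were -0.38 for groups 1 to 4, -0.08 for groups 5 to 8, -0.06 for groups 9 to 11 and 0.22 for groups 12 and 13. Of the 24 Hox genes above the floor, 13 read highest in the wild-type array among the 5 arrays of its set, against 19.6% of all genes above the floor. Hoxb3, for example, read 10.64 there and 9.74 to 9.95 on the other 4 arrays. The same array had the largest 3' minus 5' difference of the control transcripts, a sign of RNA quality, at 0.70 for Gapdh and 1.12 for Actb, where the other 10 arrays reached at most 0.22 and 0.75. Its part in the Hox values was not tested.

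The sign of the genotype difference was shared between the title series, which have no arrays in common, for 18 of 33 Hox genes (54.5%), against 39.7% of all genes, and 15 of the 18 were lower in both, as were 3453 of the 7226 genes of shared sign. A difference of exactly 0, as for Hoxb1 and Hoxc6 in the R2E17 pair, counted as not shared. Such ties were not counted over all genes, so no excess is read from these shares. A test of the difference between the series called 0 of 33 Hox genes in limma and 0.0165% of all genes, and 2 Hox genes had an unadjusted p under 0.05, as did 11.1% of all genes. These were Hoxd12 (0.75 ± 0.28, adjusted p 0.374 in limma) and Hoxd11 (0.61 ± 0.25, adjusted p 0.426 in limma), both on single R2E17 arrays assumed to vary like the others (SE).

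Homozygous replicate 4 stood apart from the other E17R2 arrays across the Hox clusters. It had the lowest value of the 6 arrays for 20 of the 33 Hox genes, against 32.3% of all genes, and all 20 were among the 24 above the floor, where the share over all genes above the floor was 41.5%. No other E17R2 array was lowest for more than 2 of those 24 genes. The median of the 24 genes on this array was 0.54 below the mean of the 6 arrays (-0.54), while the other 5 arrays had medians of 0.06 to 0.18, and the median over all genes was -0.03. These counts were made after this array had been seen to differ.

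The lower values were spread over all clusters. Relative to the mean of the other 5 E17R2 arrays, homozygous replicate 4 was at -1.27 for Hoxc8, -0.95 for Hoxc5, -0.83 for Hoxc4, -0.81 for Hoxb5, -0.76 for Hoxd9, -0.75 for Hoxa5 and -0.73 for Hoxc9. Hoxa11 (-0.18), Hoxa10 (-0.41), Hoxa2 (-0.12) and Hoxc6 (0.04) were not lowest there. Across the 24 genes the median SD over the E17R2 arrays was 0.29 with this array and 0.12 without it, and for all genes above the floor it was 0.14 and 0.11. In the set of 5 the median SD of the 24 genes was 0.22, against 0.14 for all genes above the floor. There NB-titled replicate 3 was lowest for 11 of the 24 genes, against 18.7% of all genes above the floor.

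**Figure D3:**
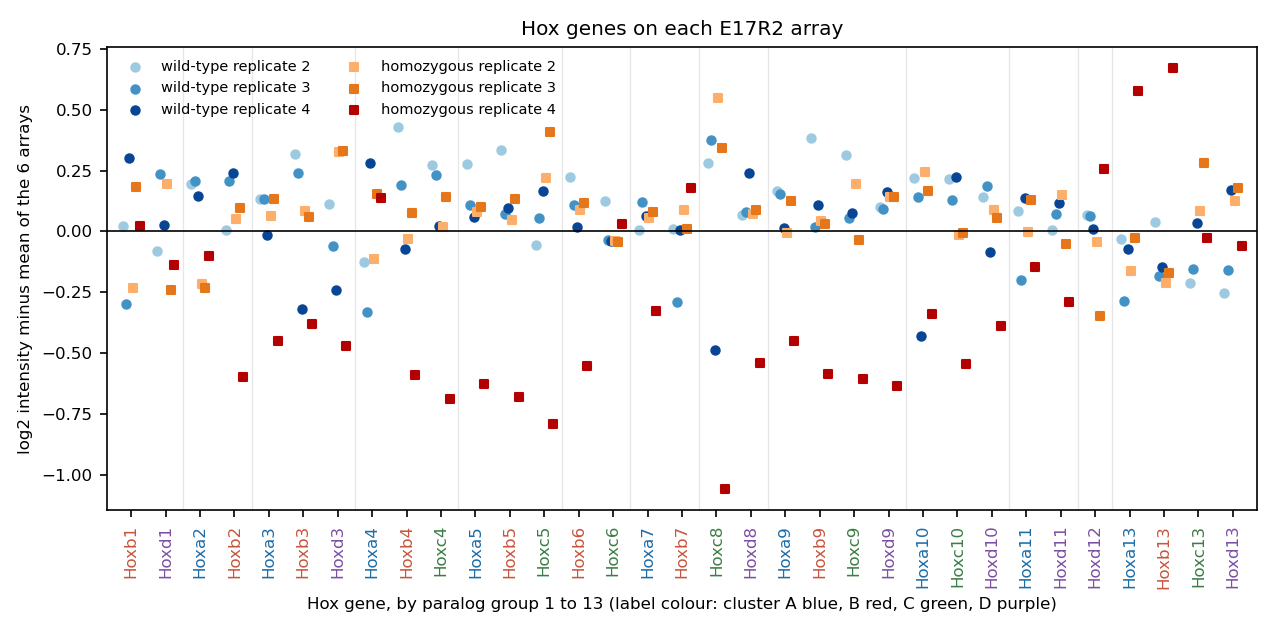
Log2 intensity of each Hox gene on each of the 6 E17R2 arrays minus the mean of these arrays (vertical axis), by paralog group, with circles for wild-type and squares for homozygous arrays. Homozygous replicate 4 (dark red) is lowest for 20 genes, reaching -1.27 from the mean of the other 5 arrays for Hoxc8, and is highest for Hoxb7, Hoxd12, Hoxa13 and Hoxb13.

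Other tissue markers moved with the same array. All 8 smooth muscle and urothelium markers were highest on homozygous replicate 4, with a summed intensity of 34060 against 4541 to 5085 in wild-type and 3567 to 4172 in the other 2 homozygous E17R2 arrays. Actg2, an actin of visceral smooth muscle, read 12.76 there and 5.34 to 7.09 on the other 5 E17R2 arrays, chosen as an example after its values were seen. All 7 nephron epithelium markers were lowest on this array, with a summed intensity of 1506 against 3516 to 3770 in wild-type and 2645 to 2887 in the other 2. Of the 7 nephron progenitor markers 4 were lowest and 1 highest, and of the 9 ureteric bud markers 6 and 1, against 41.5% lowest over all genes above the floor. Of the 9 stroma markers 4 were highest, against 20.6% of all genes, and 3 lowest. Their summed intensity was 18275 against 12810 to 14355 in wild-type and 15096 to 15186 in the other 2. Of the 7 skeletal muscle markers only 2, Acta1 and Ckm, were highest, and the rest lay within the range of the other 5 E17R2 arrays. The skeletal muscle sum was 9108 against 468 to 5411 and 219 to 1686. The part of all these markers in the Hox values was not tested. In whole tissue fewer cells of a type and less RNA per cell cannot be told apart.

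Of the 5 genes of groups 12 and 13, 3 had their highest E17R2 value on this array. Hoxa13, a gene of the hindgut and genital tubercle, read 3.33 on homozygous replicate 4 and 2.47 to 2.73 on the other 5 E17R2 arrays. Hoxb13, a gene of the tail and prostate, read 3.47 against 2.59 to 2.84, and Hoxd12 read 3.46 against 2.85 to 3.27. All 3 stayed under the floor, and with Hoxb7 they were the 4 Hox genes that were highest on this array, against 20.6% of all genes. Hoxc13 (3.07) and the brighter Hoxd13 probe set (4.07) lay within the range of the other arrays.

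The 2 probe sets of Hoxd13, which patterns the digits, hindgut and genitalia, disagreed. The dimmer one read 7.68 on homozygous replicate 4, 4.64 on homozygous replicate 3 and 3.42 to 3.79 on the other 4 E17R2 arrays. In the set of 5 it read 3.53 to 3.70. Here homozygous replicate 4 stood 3.91 above the mean of the other 5 E17R2 arrays, the largest departure of any of the 48 Hox probe sets, whereas the brighter probe set was at -0.07. Which of the probe sets follows the Hoxd13 transcript was not tested.

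Some other genes of posterior and limb or genital position were high on the same array. They were chosen after their values were seen. Pitx1, a hindlimb and genital homeobox gene, read 7.65 against 3.75 to 4.52 on the other E17R2 arrays. Tbx4, a T-box gene of the hindlimb and the genital region, read 5.75 against 2.90 to 3.58. Evx1, which lies beside Hoxa13 at the end of cluster A, read 4.95 against 2.98 to 3.55. Isl1, a gene of genital and bladder mesenchyme, read 7.91 against 3.31 to 6.48, and 7.35 on NB-titled replicate 5. Pitx1, Tbx4 and Isl1 belong to a list of 9 position factors, not all of which did this. Of the 9, these 3 included, 5 were highest on homozygous replicate 4, against 20.6% of all genes. Tbx2 (7.83) and Foxd1 (7.77), the latter also on the list of stroma markers, were lowest, against 32.3% of all genes. The summed intensity of the 9 was 3307 on homozygous replicate 4, 2500 to 2868 in wild-type and 2911 to 3072 in the other 2 homozygous arrays. This sum includes Tcf21, at 10.82 on homozygous replicate 4 and 10.62 to 10.88 on the other 5 arrays.

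**Figure D4:**
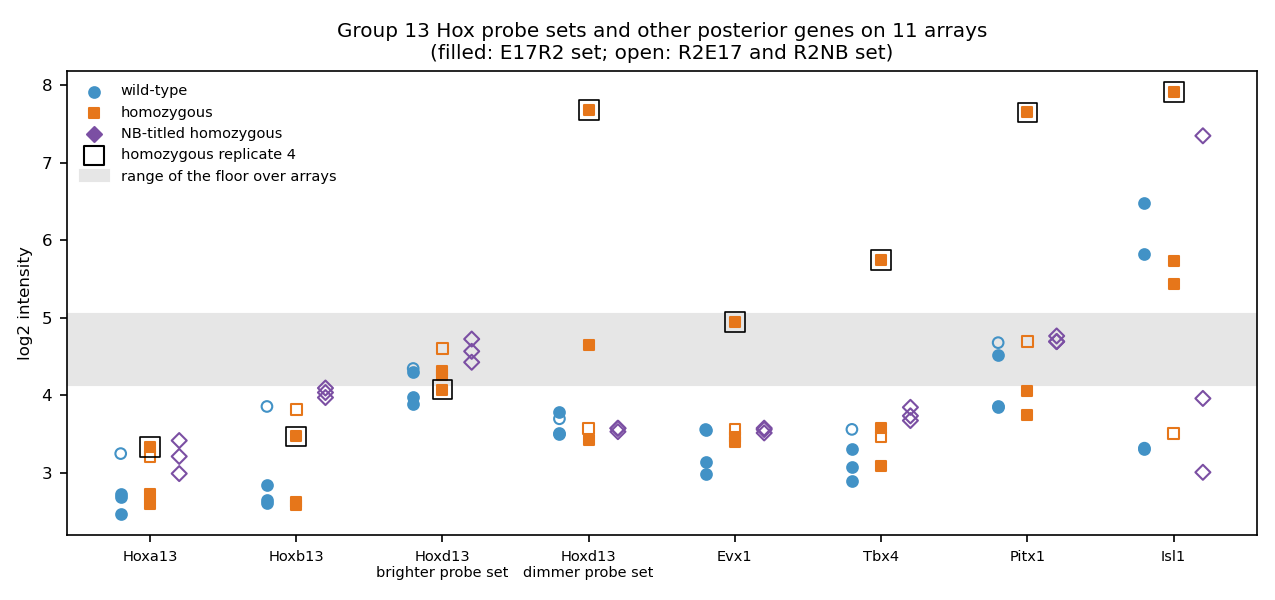
Log2 intensity (vertical axis) of the Hoxa13, Hoxb13 and Hoxd13 probe sets and of Evx1, Tbx4, Pitx1 and Isl1 on each of 11 arrays, with filled markers for the E17R2 set and open markers for the set of 5, and a grey band for the range of the floor. Homozygous replicate 4, ringed by a square, reads 7.68 on the dimmer Hoxd13 probe set, 7.65 for Pitx1 and 5.75 for Tbx4.

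The genes that work with or act on Hox genes gave no called member in the genotype comparison (0% of all genes called). Of 8 TALE cofactors, which bind DNA together with Hox proteins, 7 had differences above 0, with a median of 0.06, and Pknox2 had the smallest p, at 0.38 ± 0.08 (SE) and a limma adjusted p of 0.943. Of 11 partners and targets of the group 11 genes, 8 were below 0, with a median of -0.14. Among them were the paired-box gene Pax8 (-0.44 ± 0.18) and Wt1 (-0.34 ± 0.16, SE), both at a limma adjusted p of 0.943. On homozygous replicate 4 Pax8 read 7.53, against 8.39 to 8.61 on the other 5 E17R2 arrays. Wt1 read 8.14 there, against 8.91 to 9.08. Of the 11 genes, 8 were lowest on that array, against 41.5% of all genes above the floor. Of 18 Polycomb and Trithorax genes, which keep Hox clusters silent or active, 9 were below 0. Of 14 upstream signals such as Cdx and retinoic acid genes 4 were below 0, and of 15 neighbours of the clusters 7. All 7 nephron epithelium markers and all 9 adrenal markers had differences below 0 as well, with medians of -0.54 and -1.003. All 7 nephron epithelium markers were lowest on homozygous replicate 4. The adrenal medians relative to the E17R2 means were 1.74, 1.76 and -1.07 on wild-type replicates 2 to 4. On homozygous replicates 2 to 4 they were -0.36, -1.10 and -1.36. The part of these markers in the Hox differences was not tested.

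The next comparison set the R2E17 arrays against the E17R2 arrays within genotype, each array centred on its median gene. It called 14 of 33 Hox genes in limma at an adjusted p of 0.05, against 45.1% of all genes, so the share was near the background (14 also had an unadjusted p under 0.05, against 53.2% of all genes). Of the 14, 7 were higher in R2E17, against 13.1% of all genes, and 7 were lower, against 32% of all genes. The median shift of all genes in this contrast was -0.16 and that of the Hox genes 0.06. Title series, normalization and handling cannot be told apart here.

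Of the 9 genes of groups 9 to 11, 4 were called, against 45.1% of all genes, and all 4 were higher in R2E17. They were Hoxd9 at 0.78 ± 0.19 (limma adjusted p 0.00916), Hoxd11 at 0.77 ± 0.14 (0.00170), Hoxa10 at 0.56 ± 0.19 (0.0404) and Hoxd10 at 0.46 ± 0.12 (0.0122). Of those not called, Hoxc9 (0.37) and Hoxa9 (0.21) were above 0, and Hoxc10 (-0.30), Hoxa11 (-0.20) and Hoxb9 (-0.19) below. Hoxb4 (0.95 ± 0.24), Hoxd8 (0.56 ± 0.14) and Hoxa4 (0.52 ± 0.16) were also higher, at limma adjusted p values of 0.00913, 0.0103 and 0.0223. All 4 called genes of groups 12 and 13 were lower, namely Hoxd12 (-0.99 ± 0.17), Hoxd13 (-0.83 ± 0.12), Hoxa13 (-0.70 ± 0.21) and Hoxc13 (-0.62 ± 0.10, SE), at limma adjusted p values from 6.82e-04 to 0.0221. With quantile normalization across the arrays, 3 of these calls were lost, with Hoxa13 at -0.11, Hoxc13 at -0.13 and Hoxd12 at -0.47, and Hoxd13 was at -0.52. Hoxb1 (-0.69 ± 0.16), Hoxc6 (-0.52 ± 0.08) and Hoxa7 (-0.38 ± 0.12) were lower too. Of the 7 lower genes, 5 had not passed the floor, Hoxc6 and Hoxa7 being the exceptions, and 6 of the 7 higher genes had passed it, all but Hoxa4.

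The size of this comparison depended on its scaling and on single arrays. Without centring, 32 Hox genes were called, all of them higher in R2E17, and 16155 of 16215 called genes were higher. Without wild-type replicate 1, 7 Hox genes were called (1 higher, 6 lower), and without homozygous replicate 1, 7 (3 higher, 4 lower). Hoxb4 was at 0.61 without wild-type replicate 1. With only the genes above the floor on at least 3 arrays, 8 of 26 Hox genes were called. With all probe sets averaged, Hoxa4 was at -0.20 and Hoxc6 at 0.08.

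**Figure D5:**
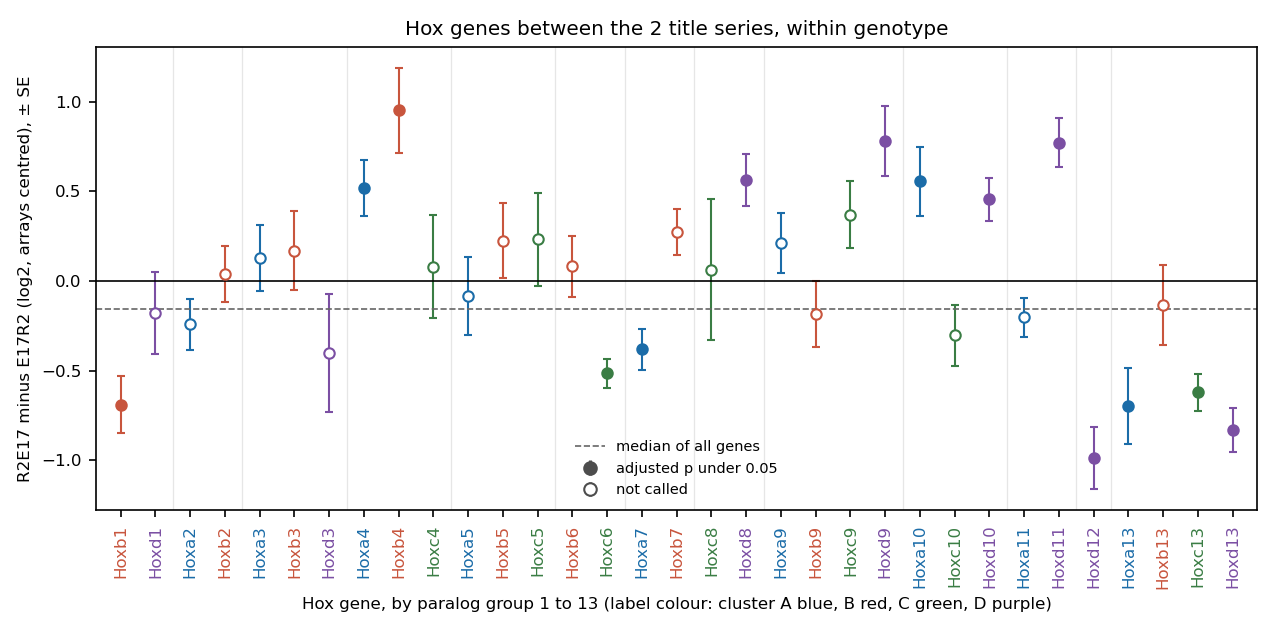
R2E17 minus E17R2 log2 difference within genotype (vertical axis) of each of the 33 Hox genes by paralog group, fitted after centring each array on its median gene, with bars of 1 SE and filled points for a limma adjusted p under 0.05. The 4 called genes of groups 9 to 11 lie above 0 and the 4 called genes of groups 12 and 13 below 0, and the latter turn positive with no centring. Hoxa11, Hoxb9 and Hoxc10, not called, lie below 0.

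Among the genes that act with the Hox clusters, calls between the title series are to be read against the 45.1% of all genes called (13.1% higher, 32% lower). Of 8 TALE cofactors, Pbx4 was higher (0.84 ± 0.11) and Pknox2, Pknox1 and Meis2 lower. Of 14 upstream signals 6 were lower, among them Cdx1, Cdx2 and Cdx4, and 1, Aldh1a3, higher. On the E17R2 arrays, where the floor was 4.14 to 4.63, Pbx4, Cdx1 and Cdx4 reached at most 3.37, 3.24 and 2.15. Cdx2 lay near the floor, at 4.34 to 5.20. Signal near or under the floor limits these calls. Polycomb and Trithorax genes gave 4 higher and 1 lower of 18. Marker lists differed as well. Of 7 nephron epithelium markers 6 were higher in R2E17, with a median of 1.44, and of 9 ureteric bud markers 3 were higher. Their part in the Hox differences was not tested.

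The NB-titled arrays were compared with the homozygous level fitted for their own set. In limma 0 of 33 Hox genes passed (0% of all genes called), 0 had an unadjusted p under 0.05, and 1.68% of all genes did. The smallest p belonged to Hoxd12 (-0.43 ± 0.22, SE, limma adjusted p 0.9999), and its value was 0.04 without homozygous replicate 1. Hoxd12 read 3.06, 2.90 and 3.06 on the NB-titled arrays, 3.71 on homozygous replicate 1 and 3.06 on wild-type replicate 1, so homozygous replicate 1 was the array that stood apart. Hoxd3, at 5.49, 6.56 and 6.74 on the NB-titled arrays, had a difference of -0.51 ± 0.40 (SE, limma adjusted p 0.9999), and -0.13 without NB-titled replicate 3. The median Hox difference was -0.04 and that of all genes 0.01.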

How the data were processed

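Biotin-labelled cRNA from 11 mouse kidney samples was hybridised to Affymetrix 3' arrays. The deposited values are RMA intensities, as the submitters' processing notes say, of a version that is not given. They are on a linear scale, and log2 was taken with no pseudocount. Of 45101 probe sets, 34945 had 1 gene symbol, 932 several and 9160 none, besides 64 controls, in the platform annotation. Symbols were updated through RefSeq (GRCm38.p6, 34741 found). Each gene was read by its brightest probe set (18193 genes), for 1580 of them one that may cross-hybridise.

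limma 3.58.1 in R 4.3.3 (lmFit, eBayes, 2-sided, Benjamini-Hochberg over all genes, threshold 0.05) was fitted to all 11 arrays, modelling the group and the array set. E17R2 arrays were also fitted alone. The fits were tested on simulated data. The number of arrays limits the precision. Members and the 16 gene lists were chosen with earlier results of these data known. Any Hox gene could be named; SE and p were given for called Hox genes or the 5 with the smallest p, and from lists for called genes or the 3 with the smallest p. Alternatives covered probe set choice, a floor filter, quantile normalization, centring, trend and robust settings, the arrays fitted and each array left out. Promoter windows on chromosome 18, 3 probe sets with a Hox symbol among several symbols and 5 antisense probe sets were not used here.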

Additional observations from a re-analysis of the deposited data

Results flagged for a closer look

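In groups of 4 arrays, each centred on its median gene, 10 of 96 tested groups of Hox probe sets had an array far from the other 3 by Dixon's criterion. Chance flags about 1 in 20 groups when the 4 arrays are alike and the groups independent. Here each group joined 1 array of the set of 5 with 3 E17R2 arrays, so no excess is read from this count. The values that follow are log2 intensities before centring. In wild-type, replicate 1 is the only wild-type array of its set. After centring it stood apart as the lowest for Hoxa7 (7.544), a second Hoxa9 probe set (7.836) and Hoxd12 (3.056). Before centring its Hoxa7 and Hoxa9 values lay above those of wild-type replicates 2 to 4 (6.84 to 6.96 and 7.14 to 7.17). It was the highest for Hoxd11 (7.132), Hoxd9 (11.13) and a second Hoxd8 probe set (10.89). Wild-type replicate 4 was the lowest for Hoxc8 (6.94). In homozygous kidneys replicate 4 was the lowest for Hoxb2 (7.433) and Hoxb6 (7.124). After centring it was also the highest for Hoxb13 (3.469), where homozygous replicate 1 read 3.820 before centring.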

How the results depend on the processing

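The count of 0 Hox genes called in both genotype comparisons, in the comparison of the NB-titled arrays and in the test between title series stayed 0 under every alternative that was run, including each array left out. The count of Hox genes above the floor ran from 17 (floor at the median gene) to 27 (above the floor on at least 1 array) around 24. The limma adjusted p of Hoxa2 ran from 0.695 to 0.999 over both title series. In the comparison of R2E17 with E17R2 arrays, the 14 called Hox genes became 8 with the floor filter, 32 with no centring, and 7 to 15 with single arrays left out. With no centring the called genes that had been lower turned higher (Hoxa13 0.47, Hoxa7 0.79, Hoxb1 0.48, Hoxc13 0.55, Hoxc6 0.66, Hoxd12 0.18, Hoxd13 0.34). Averaging probe sets turned Hoxa4 (-0.20) and Hoxc6 (0.080), and quantile normalization turned Hoxb1 (0.061). In the NB-titled comparison, single arrays left out gave -0.71 to 0.037 for Hoxd12 and -0.16 to 0.032 for Hoxa11. For these changes the cause was not tested, except that no centring keeps the shift between the sets and the filter tests fewer genes. No paired analysis was possible because the replicate numbers of wild-type and homozygous arrays were given in accession order and pair no samples. Signal near the floor limits Hoxa2 and groups 1, 12 and 13.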
